A study of Mus musculus with 7 samples.

Results

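The genes described here encode the proteins of the mitochondrial ribosome. They were taken by name: the protein-coding genes in the count files whose GENCODE M21 symbol is Mrpl or Mrps followed by a digit. This gave 78 of 46603 genes, spread over 17 chromosomes. By the assignment of each protein to a subunit, 51 belong to the large subunit, 26 to the small subunit and 1, Mrps36, to no ribosomal subunit. The rule uses no measured value, although it was set with earlier results of these data known.

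RNA was sequenced from tumors grown in 16-week-old female Balb/c nude mice that had been injected with mouse embryonic fibroblasts. The KO cells lack nuclear myosin 1 (NM1), an isoform of the motor protein made from Myo1c, after CRISPR/Cas9 editing. The KO + NM1 cells are the same knockout line carrying a lentiviral NM1-HA-V5 coding sequence, selected with neomycin and tested as single clones, so both groups share the knockout and differ by the added transgene and its selection. By the labels, the KO tumor and the KO + NM1 tumor, removed 30 days after injection, were each cut into 4 pieces and homogenized piece by piece, and 3 KO pieces and 4 KO + NM1 pieces were sequenced. Unless the pieces came from separate mice, which the labels do not state, the p-values below measure the spread between pieces of a tumor and not between animals. The tumors hold host cells, the nude host keeps B cells, macrophages, fat and vessels, and read counts cannot separate them from the injected cells. Tumors from unedited cells are not part of the comparison.

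Mitochondria keep a ribosome of their own, descended from that of bacteria, which translates the few mRNAs of the mitochondrial genome into membrane subunits of the respiratory chain and the ATP synthase. Its rRNAs are made inside the organelle, while every one of its proteins is encoded in the nucleus, made in the cytosol and imported. Some of these proteins have a counterpart in bacteria and others are found only in mitochondria. In this list 30 proteins of the large subunit and 16 of the small subunit have a bacterial counterpart, and 21 and 10 are specific to mitochondria.

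The 7 libraries held 24088309 to 28326568 counted reads. The member genes took 0.389%, 0.365% and 0.346% of them in the 3 KO pieces and 0.261%, 0.309%, 0.326% and 0.275% in KO + NM1 pieces 01 to 04, with no overlap between the groups on this scale. Values below are CPM, a gene's share of the reads put on a common library total, after TMM scaling, which sets the libraries on a common level from the bulk of their genes, and its factors ran from 0.798 (KO + NM1 piece 03) to 1.09. Myo1c, the targeted gene, was at 313, 289 and 306 CPM in KO and at 438, 408, 406 and 382 CPM in KO + NM1. Gene counts do not separate its isoforms, so this does not check the knockout. The groups differed in markers of cell types and of proliferation: all 10 skeletal muscle and all 10 proliferation markers tested were higher in KO, and all 10 white adipocyte and all 7 endothelial markers were lower. KO + NM1 piece 01 stood apart by B and plasma cell markers, whose summed level was 7000 CPM there, between 209 and 271 CPM in pieces 02 to 04 and between 78.1 and 159 CPM in KO. It also held more macrophage marker reads than pieces 02 to 04, 2454 against 611 to 841 CPM, and fewer of white adipocytes, 4770 against 24822 to 34996 CPM.

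Messages for the mitochondrial ribosome changed little between the tumors. Of the 78 genes, 77 passed the filter on low counts and were tested, with edgeR's quasi-likelihood test and Benjamini-Hochberg adjustment over 16887 genes. At an adjusted p under 0.05, 11 were higher in KO, where 25.7% of all tested genes were higher, and 2 were lower, where 24.5% of all tested genes were lower. A single member, Mrpl22, also passed a 2-fold change (17.1% of all tested genes were higher by that rule and 20.3% lower), and 0 did without KO piece 01 or KO + NM1 piece 01, 2 without KO + NM1 piece 02 and 3 without piece 03. The fitted log2 fold changes, KO minus KO + NM1, ran from -0.70 to 1.12, and 98.7% of members lay within 1 log2 unit of no change against 54.4% of all tested genes. Their quartiles were -0.24 and 0.34, against -1.02 and 0.80 for all tested genes. The median standard error was 0.20 for members and 0.32 for all tested genes, and these comparisons were not matched for read level.

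**Figure D1:**
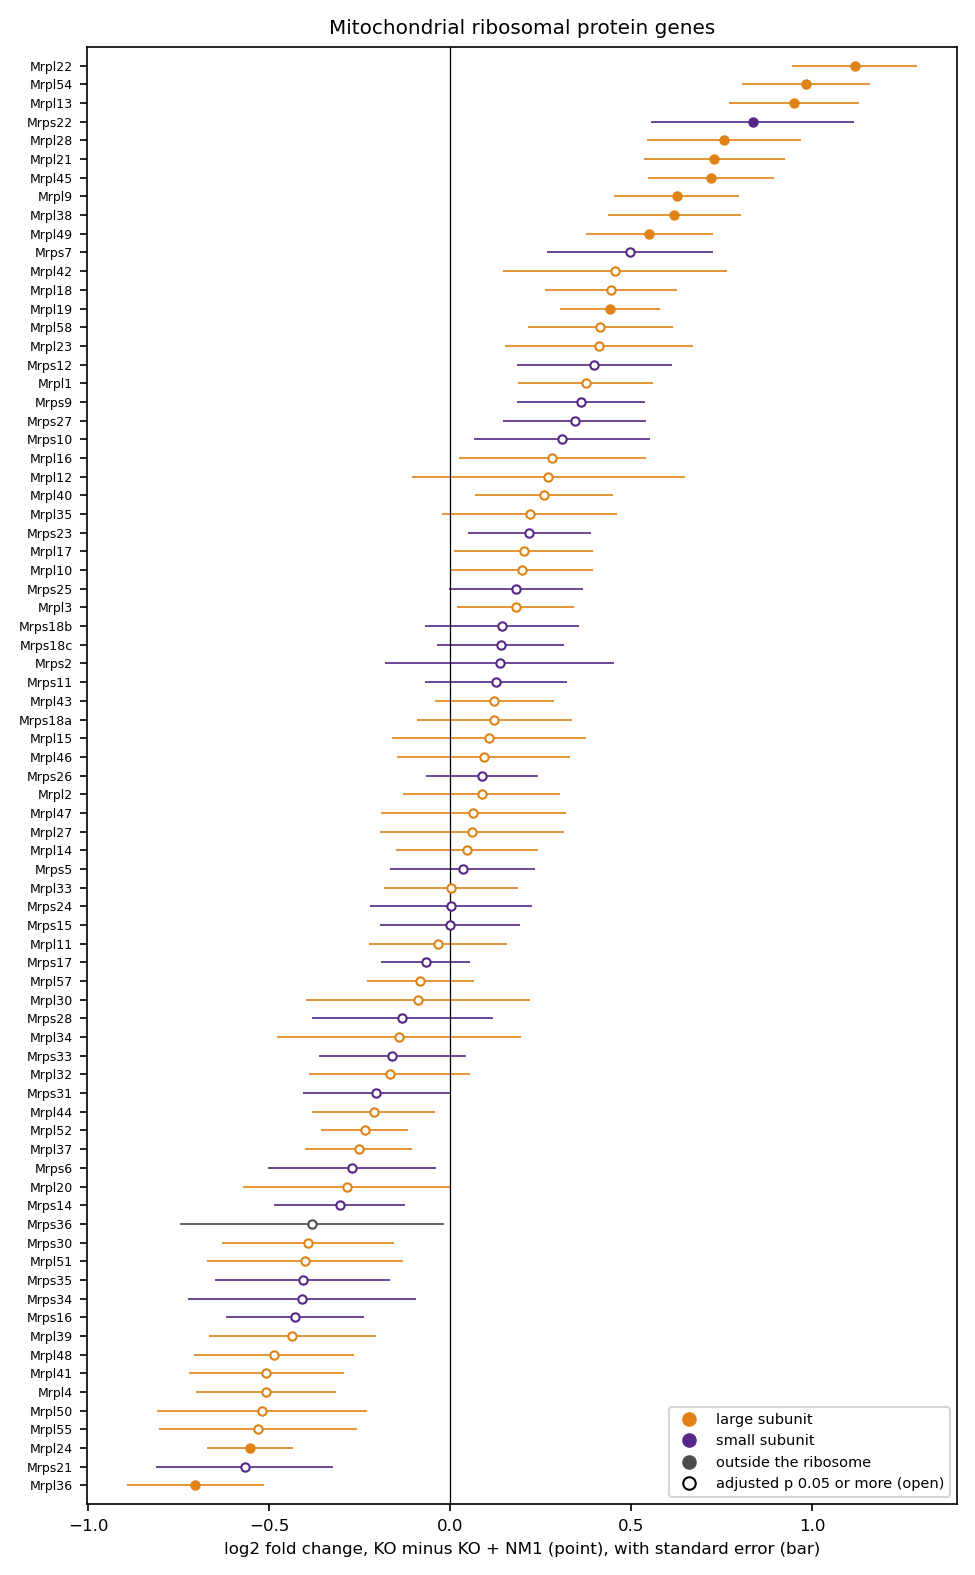
Log2 fold change, KO minus KO + NM1, of each of the 77 tested genes (point) with its standard error (bar), ordered by size. Filled points passed an adjusted p under 0.05, which 11 genes did on the higher side, up to Mrpl22 at 1.12, and 2 on the lower side, down to Mrpl36 at -0.70.

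The median log2 fold change of the members was 0.09, beside 0.00 for all tested genes, and it turned to -0.01 with DESeq2's size factors and to -0.07 with upper-quartile factors. Those scalings moved the median of all tested genes as well, to -0.10 and -0.16, and scaling by library size alone moved it to 0.17. Relative to all tested genes, the member median stood 0.09 higher with TMM, 0.09 higher with each of those factors and 0.14 higher by library size. In 3 of the 16 alternative settings it stood below that of all tested genes, with a difference of -0.17 without KO + NM1 piece 01, of -0.11 with voom and sample quality weights and of a smaller size in the third. Without KO + NM1 piece 03 the member median stood 0.23 above that of all tested genes, the largest difference in that direction. The split of calls followed the scaling: 7 higher and 4 lower with DESeq2's size factors, 5 and 6 with upper-quartile factors and 21 and 1 by library size, against 11 and 2. It also changed when a single piece was left out. Such fits have fewer libraries for every gene, and the share of all tested genes is given only for the fit without KO + NM1 piece 01. Without KO piece 01, 02 or 03 in turn, 3 members were higher, and 1, 2 and 1 were lower. Leaving out KO + NM1 piece 02 gave 6 higher and 2 lower, and piece 04 gave 4 and 3. Leaving out piece 01 gave 9 and 21, where 35.8% and 36.0% of all tested genes were higher and lower. Of the fits with a piece left out, the one without piece 03 gave the most higher members, 13. The 13 called members kept their sign in all 16 alternative settings, but only Mrpl22, Mrpl54 and Mrpl13 passed in each of them.

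Large-subunit genes made up most of the calls. Of 50 tested, 10 (20.0%) were higher and 2 (4.0%) lower, with a median of 0.10. Of 26 tested small-subunit genes 1 (3.85%) was higher and 0 lower, with a median of 0.06. Of all tested genes 25.7% were higher and 24.5% lower, above the shares in either subunit. Among large-subunit proteins with a bacterial counterpart, 6 of 30 were higher and 2 lower. Among those specific to mitochondria, 4 of 20 were higher and 0 lower. In the small subunit, 0 of 16 with a bacterial counterpart and 1 of 10 specific to mitochondria were called. Without KO + NM1 piece 01, 13 large-subunit and 8 small-subunit genes were lower in KO. In that fit 36.0% of all tested genes were lower, above the share in either subunit. The difference in calls between the subunits was not tested, since members of a list are not replicates.

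Mrpl22 (ENSMUSG00000020514, chr11:58171661-58179565, plus strand, GRCm38) encodes uL22m, whose bacterial counterpart reaches into the exit tunnel for the growing chain. It was at 41.9, 36.7 and 33.3 CPM in KO and at 15.6, 17.0, 20.9 and 15.2 CPM in KO + NM1 pieces 01 to 04. The groups did not overlap, and the lowest KO value exceeded the highest KO + NM1 value by more than the range within KO + NM1. The log2 fold change was 1.12 ± 0.17 (SE), or 2.17-fold, with an adjusted p of 0.00216 by edgeR, and over the alternative settings the adjusted p ran up to 0.0348. A two-sided exact permutation test of its CPM gave 0.0286, the smallest p that 3 pieces against 4 allow.

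Mrpl13 (chr15:55534094-55557748, minus strand), which encodes uL13m, a core protein of the large subunit, was at 97.0, 83.1 and 83.7 CPM in KO and at 36.1, 50.3, 55.3 and 40.5 CPM in KO + NM1. The groups did not overlap, and its log2 fold change was 0.95 ± 0.18 with an edgeR adjusted p of 0.00449. Its exons share 330 bases with those of Mtbp on the other strand, and whether the reads were counted by strand is not given in the sources used here. Mrpl28 (bL28m) had values of 112, 93.9 and 88.9 CPM in KO and of 44.2, 64.9, 74.7 and 48.9 CPM in KO + NM1, again without overlap, for a log2 fold change of 0.76 ± 0.21. This gene and the others below that lie outside the rule for named genes were named after their values were seen, because they passed the test.

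The other large-subunit genes with a bacterial counterpart that were higher in KO changed less. Mrpl21 (bL21m) had a log2 fold change of 0.73 ± 0.20, with 45.8 to 51.7 CPM in KO and 22.7 to 37.8 CPM in KO + NM1. Mrpl9 (bL9m) followed at 0.63 ± 0.17, from 77.9 to 92.5 CPM against 46.4 to 69.4 CPM. Mrpl19 (bL19m) had the smallest called change, 0.44 ± 0.14, from 27.3 to 29.5 CPM against 19.5 to 23.2 CPM. These ranges all stayed apart between the groups, but each of these genes shares exon bases with a gene on the other strand, Mrpl19 the most with 1962 bases shared with Gcfc2.

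Both genes that were lower in KO also have a bacterial counterpart. Mrpl36 (chr13:73328513-73332178, plus strand) encodes bL36m, a very small zinc-binding protein of the large subunit. It was at 18.0, 19.8 and 18.5 CPM in KO and at 26.7, 31.4, 39.1 and 25.1 CPM in KO + NM1, with a log2 fold change of -0.70 ± 0.19 and an edgeR adjusted p of 0.0202. Mrpl24 (chr3:87919506-87923672, plus strand) encodes uL24m, which sits near the mouth of the exit tunnel. It was at 39.0, 43.9 and 43.6 CPM in KO and at 65.4, 61.9, 64.5 and 55.9 CPM in KO + NM1. Here the KO + NM1 pieces lay close together, unlike in most members, and the log2 fold change was -0.55 ± 0.12 with an edgeR adjusted p of 0.00826. All KO values of both genes lay below all KO + NM1 values. Mrpl24 shares 594 exon bases with Rrnad1 on the other strand.

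Among proteins of the large subunit found only in mitochondria, Mrpl54 (chr10:81264713-81266934, minus strand) differed most. It was at 65.0, 65.5 and 64.9 CPM in KO and at 25.9, 36.2, 40.6 and 29.1 CPM in KO + NM1. The 3 KO pieces were nearly the same and far above the others, and the log2 fold change was 0.98 ± 0.18, with an edgeR adjusted p of 0.00381. Mrpl45, whose protein lies at the tunnel exit and helps anchor the ribosome to the inner membrane, had 75.2, 59.5 and 59.5 CPM in KO against 36.1, 39.1, 48.6 and 33.3 CPM in KO + NM1. The groups did not overlap, and its log2 fold change was 0.72 ± 0.17 (edgeR adjusted p 0.0122). Mrpl38 at 0.62 ± 0.18 and Mrpl49 at 0.55 ± 0.18 were the other 2 called, with no overlap between the groups either.

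Mrps22 (chr9:98588730-98601660, minus strand) was the small-subunit gene called. Its protein occurs only in mitochondria, and inherited defects in it cause a mitochondrial disease. It was at 34.9, 28.5 and 28.5 CPM in KO and at 10.2, 20.1, 22.6 and 15.7 CPM in KO + NM1. The groups were apart, with piece 01 lowest, and the log2 fold change was 0.84 ± 0.28 with an edgeR adjusted p of 0.0408. That call was kept in 6 of 16 alternative settings and reached an adjusted p of 0.199 in the least favourable of them.

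**Figure D2:**
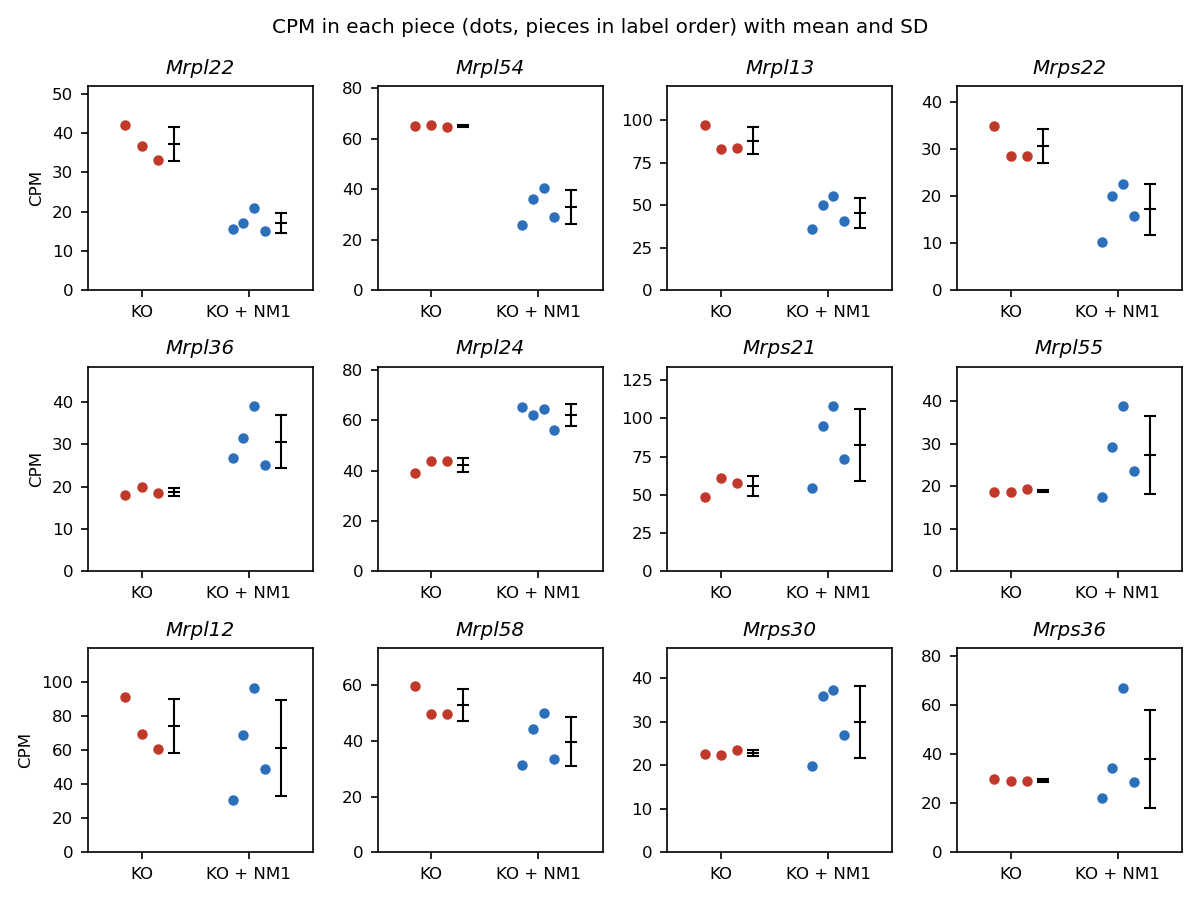
CPM of 12 genes in each piece (dots, in label order within each group), with the group mean and standard deviation (black) beside them; every axis starts at 0. Mrpl22, Mrpl54, Mrpl13 and Mrps22 lie higher in every KO piece and Mrpl36 and Mrpl24 lower, while the groups overlap for the other 6.

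The 64 tested members that were not called had log2 fold changes from -0.57 to 0.50, with 35 above and 29 below 0. An approximate 95% interval of their differences, taken from the standard error alone, reached a median of 0.42 log2 units to either side. It is not a limit of detection, and changes of about that size in these genes are not excluded. Mrps21, the gene of a small bacterial-type protein of the small subunit, was at 48.6, 61.1 and 57.6 CPM in KO and at 54.6, 94.6, 108 and 73.4 CPM in KO + NM1. Mrpl55, of the large subunit, was at 18.7, 18.6 and 19.2 CPM in KO and at 17.4, 29.2, 38.9 and 23.6 CPM in KO + NM1. In both genes piece 01 lay within or below the KO values and the other KO + NM1 pieces above them. The log2 fold changes were -0.57 ± 0.24 for Mrps21 and -0.53 ± 0.27 for Mrpl55, with edgeR adjusted p values of 0.0942 and 0.148.

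Counted by separation alone, 13 members were higher in every KO piece than in any KO + NM1 piece (30.5% of all tested genes) and 6 were lower (26.4%). The 13 called genes were all among these 19. The other 6 were Mrpl1 and Mrpl18 on the higher side and Mrpl4, Mrpl41, Mrpl52 and Mrps16 on the lower side, with edgeR adjusted p values from 0.0660 to 0.141. Mrpl52 shows how small such a separation could be, at 31.8 to 34.1 CPM in KO and 36.8 to 42.0 CPM in KO + NM1. These 6 were named after their values were seen.

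Several members have known roles besides the common one. Mrpl12 forms the stalk that binds translation factors, and its protein has also been described as a partner of the mitochondrial RNA polymerase. It was at 91.2, 69.5 and 60.4 CPM in KO and at 30.7, 68.7, 96.4 and 48.6 CPM in KO + NM1. No difference could be resolved, at 0.27 ± 0.38 on the log2 scale, because the KO + NM1 pieces spanned the whole KO range and more. Mrpl58, a large-subunit protein that can release stalled chains, was at 52.9 ± 5.78 CPM in KO (SD, n = 3) and 39.7 ± 8.91 CPM in KO + NM1 (SD, n = 4), with overlapping pieces, a log2 fold change of 0.41 ± 0.20 with an edgeR adjusted p of 0.123.

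Mrps30 and Mrps18a carry names of the small subunit although their proteins sit in the large one. Mrps30 was at 22.6, 22.3 and 23.6 CPM in KO and at 19.7, 35.8, 37.4 and 27.0 CPM in KO + NM1, so piece 01 fell below the KO values and the other 3 above. The log2 fold change was -0.39 ± 0.24, with an edgeR adjusted p of 0.213. Mrps18a is 1 of 3 genes for relatives of the bacterial protein S18. The other two, Mrps18b and Mrps18c, encode small-subunit proteins. Per kilobase of transcript, Mrps18a was at 60.6 ± 3.20 CPM per kb in KO (SD, n = 3) and 55.7 ± 14.5 in KO + NM1 (SD, n = 4). Mrps18c followed at 24.7 ± 1.55 and 22.4 ± 2.81, and Mrps18b at 18.6 ± 1.55 and 16.9 ± 3.40 CPM per kb. Mrps18a made up 54.4% to 61.3% of the summed level of the trio in every piece, while Mrps18b took 16.0% to 19.8% and Mrps18c 21.5% to 26.3%, and these shares overlapped between KO and KO + NM1. The log2 fold changes of the 3 genes were between 0.12 and 0.14, and all of them turned negative with upper-quartile factors.

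Mrps36 is named as a ribosomal protein but is a component of the 2-oxoglutarate dehydrogenase complex of the citric acid cycle. It was at 29.7, 29.1 and 28.9 CPM in KO and at 22.2, 34.5, 66.8 and 28.7 CPM in KO + NM1. Piece 03 alone lay far above the rest, and the log2 fold change was -0.38 ± 0.37 (edgeR adjusted p 0.420), or 0.02 without that piece. Mrpl53 was not tested. It was at 0.0667 to 0.0991 CPM in KO and 0.0814 to 0.255 CPM in KO + NM1, and 695 of its exon bases overlap Ccdc142os or Gm42688 on the same strand, so that reads there may not have been assigned to it.

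The members of this complex differed widely in message level. The mean over all pieces spanned a 36.2-fold range among the tested members when given per kilobase of the median protein-coding transcript. By this mean Mrps21, Mrpl42 and Mrpl20 were highest. In KO alone Mrpl20 ranked below several others, among them Mrpl54, Mrpl30, Mrpl17, Mrpl28, Mrpl13 and Mrps23. Mrpl42 was at 148 ± 3.86 CPM per kb in KO and 108 ± 43.9 in KO + NM1. Mrps21 was at 138 ± 15.9 and 204 ± 58.2 CPM per kb. Mrpl20 was at 87.8 ± 16.4 and 107 ± 37.9 CPM per kb. Mrps21 was the highest of the 3 in each KO + NM1 piece, while Mrpl42 and Mrpl20 changed places between pieces. At the low end stood Mrpl47, at 5.36 ± 0.203 and 5.13 ± 1.61 CPM per kb, and Mrpl19, at 5.71 ± 0.219 and 4.21 ± 0.344 CPM per kb. Their annotated transcripts are long, 3364 and 5000 bases. The order depends on the choice of length: per kilobase of all annotated exons joined, Mrps21 stayed first, but Mrpl20 ranked 19 and Mrpl42 30, Mrpl23 was lowest and the range was 120-fold. The median level was 39.4 CPM per kb in the large subunit and 24.3 in the small subunit.

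Within the KO + NM1 tumor the members moved together from piece to piece. Piece 03 was the highest of the 4 pieces for 71 of the 77 tested members, against 22.4% of all tested genes, and piece 01 was the lowest for 57, against 42.1%. Both held for 55 members, against 16.8% of all tested genes. The median log2 CPM of the members was 4.93, 5.43, 5.71 and 5.11 in pieces 01 to 04, and 5.36, 5.27 and 5.17 in the KO pieces. Scaled by library size alone, piece 03 was highest for 40 members (51.9%), against 9.48% of all tested genes. Piece 01 was then lowest for 50 (64.9%, against 33.0%), and both held for 30 (39.0%, against 7.31%). The count for piece 03 thus rested in part on its small TMM factor, but the share of all tested genes fell with it, from 22.4% to 9.48%.

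**Figure D3:**
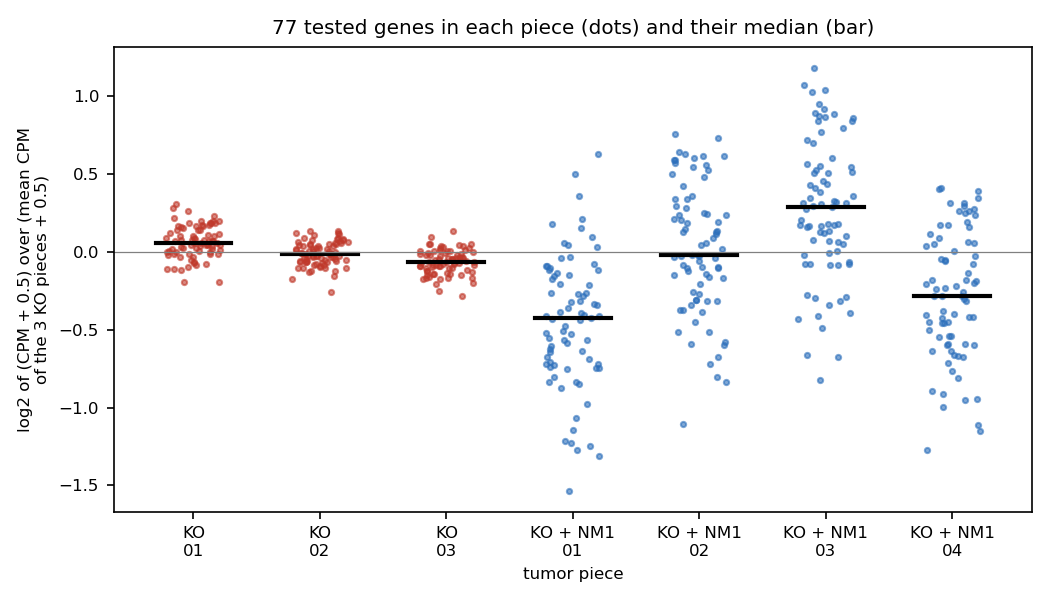
Log2 of each tested member's CPM over its mean in the 3 KO pieces, with 0.5 CPM added to both (dots), and the median over the 77 members (bar), for each piece. Piece 01 of KO + NM1 has a median of -0.42 and piece 03 of 0.29, on either side of the KO pieces, which lie near 0 because their own mean is the reference.

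Set against the range of the KO pieces, piece 01 lay below it for 63 members (81.8%) and above it for 8 (10.4%). Piece 03 was the opposite, below for 14 (18.2%) and above for 51 (66.2%). Piece 02 was below for 29 (37.7%) and above for 34 (44.2%), and piece 04 below for 52 (67.5%) and above for 17 (22.1%). Of all tested genes, 43.3% lay below and 44.5% above in piece 01, and 48.9% and 40.7% in piece 03. The shares of all tested genes were 48.3% and 41.3% in piece 02, and 48.3% and 41.1% in piece 04. For Mrpl12, Mrpl42 and Mrps30 all KO values fell between those of pieces 01 and 03. The highest piece exceeded the lowest by a median of 1.14-fold among the 3 KO pieces and of 1.64-fold among the 4 KO + NM1 pieces, and the KO spread was the smaller for 77 of 77 members, or 62 by library size alone. Of all 16887 tested genes this held for 14065, or 14419 by library size alone, where the share of members was not the larger. A range over 4 pieces tends to be wider than over 3.

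Without piece 01, 21 members were lower in KO, 13 of the large and 8 of the small subunit, and 9 were higher, with a member median of -0.17. The 2 genes lower with all pieces were lower here too, and 9 of the 11 higher ones remained higher. None of the 21 was lower by 2-fold or more. In this fit 36.0% of all tested genes were lower and 35.8% higher, both above the shares of the members. With all pieces these shares of all tested genes were 24.5% and 25.7%. Which genes of this family count as lower in KO thus changed with a single piece, as did the calls over all tested genes. That piece was the one in which B and plasma cell markers were highest. Markers of brown fat, a tissue rich in mitochondria, were highest in piece 03, with a median log2 CPM of 7.47 against 3.90 to 4.75 in the other KO + NM1 pieces. Ucp1, the defining gene of that cell type, was at 191, 325, 1775 and 130 CPM in pieces 01 to 04 and at 0.0348 to 0.132 CPM in the KO pieces. The part of these cells in the member levels was not tested, and fewer cells of a type and less RNA per cell cannot be told apart in bulk tumor.

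Of 5 further ribosomal proteins with other names, 1 differed. Gadd45gip1, a large-subunit protein also known as a cell cycle inhibitor, was at 26.8, 22.8 and 21.8 CPM in KO and at 14.4, 14.9, 15.3 and 11.2 CPM in KO + NM1. The groups were apart, for a log2 fold change of 0.77 ± 0.18 and an edgeR adjusted p of 0.0108. The small-subunit genes Dap3, which is also linked to cell death, Chchd1, Ptcd3 and Aurkaip1 were not called. Their log2 fold changes were 0.02 ± 0.14, 0.18 ± 0.20, 0.26 ± 0.23 and -0.53 ± 0.21.

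Genes that build and serve the ribosome gave more lower than higher calls, and that balance turned by library size alone or without KO + NM1 piece 03. Of 26 assembly factors 2 were higher and 6 lower in KO, with a median of -0.18. Of 15 translation factors 1 was higher and 4 lower, with a median of -0.31, and of 17 mitochondrial tRNA synthetases 1 was higher and 3 lower, with a median of -0.07. With the 5 subunits above, these 63 nuclear genes gave 5 higher and 13 lower calls, but 7 and 4 when scaled by library size alone. The lower calls were 20.6% of the 63 and the higher ones 7.94%, beside 24.5% and 25.7% of all tested genes, so the share that was lower lay near or under that of the whole table.

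C1qbp, a matrix protein needed for mitochondrial translation, had the largest rise among assembly factors, from 64.8, 78.7, 87.4 and 68.2 CPM in KO + NM1 to 233, 178 and 178 CPM in KO. This was a log2 fold change of 1.39 ± 0.17 (edgeR adjusted p 0.00104), larger than that of any Mrpl or Mrps gene. Mtg1, a GTPase that acts in large-subunit assembly, had the largest fall, with 18.3, 14.9 and 15.0 CPM in KO against 23.1, 36.6, 40.4 and 25.3 CPM, a log2 fold change of -0.97 ± 0.24. In the translation group, Lrpprc, which stabilizes mitochondrial mRNAs, was higher at 0.88 ± 0.19, and Oxa1l, which inserts the new chains into the inner membrane, was lower at -1.06 ± 0.14. Oxa1l was at 47.0, 47.8 and 45.4 CPM in KO and at 94.7, 93.3, 117 and 85.5 CPM in KO + NM1. Among synthetases, Lars2 for leucine was higher at 1.40 ± 0.39 and Iars2 for isoleucine lower at -1.05 ± 0.29. Lars2 was at 1051, 719 and 2101 CPM in KO and at 401, 502, 651 and 398 CPM in KO + NM1, so its lowest KO piece lay just above its highest KO + NM1 piece.

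Those counts too changed when a single piece was left out, which leaves fewer libraries for every gene. Without KO pieces 01, 02 and 03 in turn, 1, 3 and 2 of the 63 genes were higher and 5, 5 and 4 lower. Without KO + NM1 piece 01, 7 were higher and 27 lower, where 35.8% and 36.0% of all tested genes were higher and lower. Without piece 02 the counts were 4 and 7, and without piece 03, 7 and 6.

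The messages that this ribosome translates differed far more than those of its own proteins. All 13 mitochondrially encoded mRNAs were lower in KO, with log2 fold changes from -3.16 to -2.18 and a median of -2.63, although 8 passed without KO piece 01. The largest fall was that of mt-Nd4, a subunit of complex I, at 825, 1173 and 957 CPM in KO against 3376, 8802, 16777 and 6286 CPM in KO + NM1. Both mitochondrial rRNAs were lower as well, mt-Rnr1 at -2.56 ± 0.70 and mt-Rnr2 at -2.44 ± 0.64. For every read of a member gene there were 4.41, 5.60 and 5.01 reads of mitochondrial mRNA in KO and 18.6, 33.0, 53.5 and 27.3 in KO + NM1 pieces 01 to 04. This ratio needs no scaling between libraries, and its lowest KO + NM1 value was above 3 times the highest KO value.

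**Figure D4:**
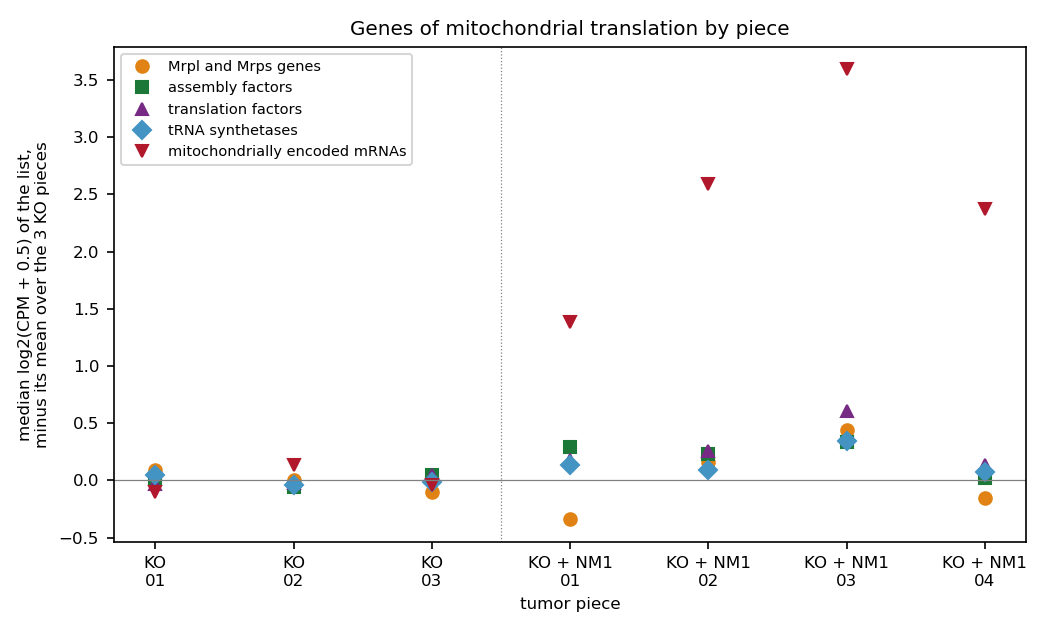
Median log2(CPM + 0.5) of each list in each piece, minus its mean over the 3 KO pieces; the lists are the 77 Mrpl and Mrps genes, 26 assembly factors, 15 translation factors, 17 tRNA synthetases and 13 mitochondrially encoded mRNAs. The mitochondrial mRNAs lie above all nuclear lists in every KO + NM1 piece, and piece 03 has the highest point of each list.

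Many of these genes share a start region with another gene. For 33 of 78 members (42.3%) a gene on the opposite strand starts within 1000 bases, pointing away or overlapping the member at the 5' ends. This compares with 10.9% of 21624 protein-coding genes in the files and 14.4% of those tested. Mrpl46 and Mrps11 are each other's partner, and 31 members have a partner outside the list. Of 29 such partners that were tested, 11 were higher and 3 lower in KO, beside 25.7% and 24.5% of all tested genes. In 11 pairs the partner was called and the member was not.

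The largest changes among the partners were seen beside members that were not called. Eme1, a subunit of a DNA structure-specific endonuclease, was at 23.5 ± 3.50 CPM in KO and 0.467 ± 0.387 in KO + NM1, a log2 fold change of 5.62, beside 0.06 ± 0.25 for Mrpl27. Ska3, a kinetochore protein, was at 23.9 ± 1.06 and 0.614 ± 0.464 CPM, a log2 fold change of 5.26, beside -0.08 ± 0.15 for Mrpl57. Ncapd2, a condensin subunit, had a log2 fold change of 3.10 beside -0.40 ± 0.27 for Mrpl51, which was called lower without KO + NM1 piece 01, at -0.70. These start sites lie 197, 49 and 100 bases apart.

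In 3 pairs both genes were higher in KO. Mtbp, which binds Mdm2 and acts at replication origins, had a log2 fold change of 2.96 ± 0.30, and its neighbour Mrpl13 had 0.95. Mrpl54 and Apba3, whose starts are 26 bases apart, had 0.98 and 0.57, and Mrpl21 and Ighmbp2 had 0.73 and 0.73. Mrpl36 and Ndufs6, which encodes a subunit of complex I, start 29 bases apart and were both at negative values, -0.70 ± 0.19 and -1.05 ± 0.38, though the partner did not pass (edgeR adjusted p 0.0607). Mrpl13, Mrpl21 and Mrpl36 share 330, 117 and 30 exon bases with these partners on the other strand, and whether reads were counted by strand is not given. The partners were named after their values were seen.

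**Figure D5:**
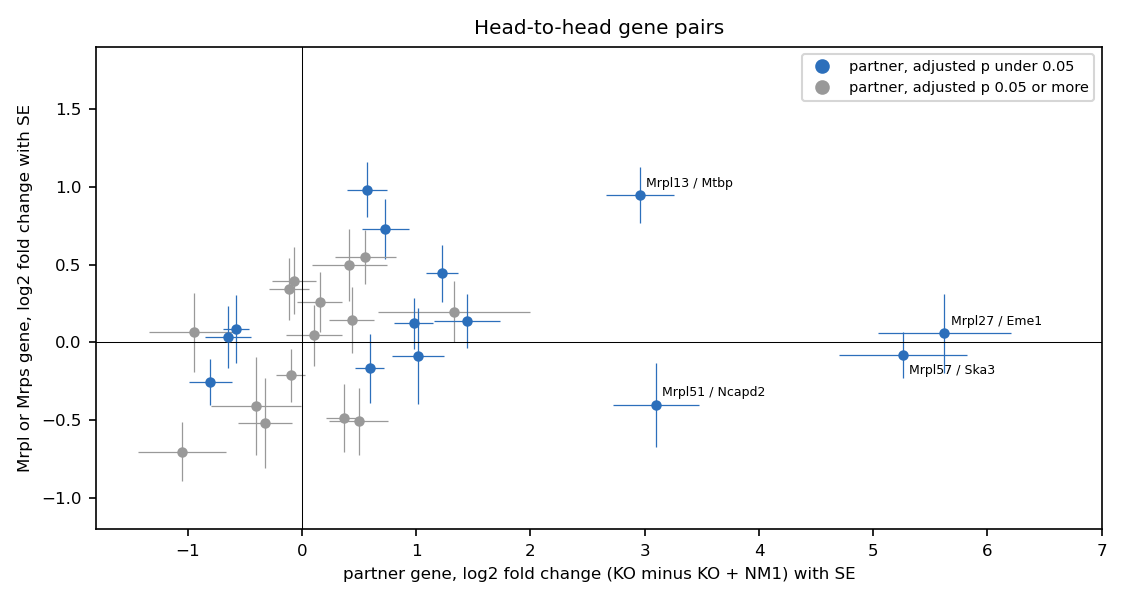
Log2 fold change, KO minus KO + NM1, of the Mrpl or Mrps gene (vertical axis) against that of the gene starting within 1000 bases on the opposite strand (horizontal axis), with standard errors, for 29 pairs. The partners reach 5.62 while the ribosomal genes stay between -0.70 and 0.98.

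The sequences before the start sites are shown for members whose values differ or stand still, to let their promoters be compared. RefSeq's table (GRCm38.p6) gave a start for 69 of the 78 members, and not for Mrpl54 or Mrpl13. Their 250 upstream bases had a median GC content of 58.4%, against 52.4% for all promoters in the table, and 0 of them held TATAAA in the last 50 bases, against 2.63%. The first set holds 30 bases around a motif, in capitals, where GCATGCGC (either strand) is the core bound by nuclear respiratory factor NRF1, known to act on nuclear genes of mitochondria, CCGGAAG that of ETS factors, AAGATGGC that of YY1 and CACGTG an E-box. In order they are Mrpl22 at chr11:58171620-58171649 (plus) and chr11:58171600-58171629 (plus), Mrpl9 at chr3:94443297-94443326 (plus), Mrpl33 at chr5:31613921-31613950 (plus), Mrpl39 at chr16:84735351-84735380 (minus) and Mrpl36 at chr13:73330955-73330984 (plus).
Mrpl22 NRF1: ggcctcggactGCGCATGCgtatagtcagc
Mrpl22 ETS: cttttccggtcCCGGAAGccggcctcggac
Mrpl9 NRF1: gaggcgcagctGCGCATGCGCggggtcctt
Mrpl33 NRF1: agccttctaccggaacccGCGCATGCcccg
Mrpl39 NRF1: caaggagaggcGCGCATGCGCccccgcgtg
Mrpl36 E-box and YY1: acacgtcatccCACGTGaccttacGCCATC
The Mrpl36 stretch ends before the last 2 bases of its YY1 core. The stretches of Mrpl22 touch no annotated exon, while those of the other 4 genes overlap an exon of the gene in GENCODE M21, whose starts differ from RefSeq's.

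The second set gives the 120 bases before the start of both called genes whose stretch touches no annotated exon, Mrps22 at chr9:98601680-98601799 (minus) with an ETS core in capitals, and Mrpl45 at chr11:97315596-97315715 (plus) with none of the 4 motifs.
Mrps22: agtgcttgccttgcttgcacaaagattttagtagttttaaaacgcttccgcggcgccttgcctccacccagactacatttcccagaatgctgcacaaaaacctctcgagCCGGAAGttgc
Mrpl45: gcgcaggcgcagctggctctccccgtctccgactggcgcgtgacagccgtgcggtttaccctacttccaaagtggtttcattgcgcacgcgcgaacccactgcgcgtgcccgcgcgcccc

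The ETS core was found before 18 of 69 members (26.1%, against 7.83% of 27025 genes with a promoter) and the NRF1 core before 8 (11.6%, against 2.56%). The YY1 core was found before 4 (5.80%, against 1.83%) and the E-box before 5 (7.25%, against 6.86%). Genes with the NRF1 core had values on both sides of 0, and those that passed the test were higher in KO. Mrpl22 and Mrpl9 were higher at 1.12 and 0.63. The others did not pass, with Mrpl10 and Mrpl17 at 0.20, Mrps18b at 0.14, Mrpl33 at 0.00 ± 0.18, Mrpl32 at -0.17 and Mrpl39 at -0.44 ± 0.23. Mrpl36 holds the YY1 core next to the E-box. A match is only a match of letters and does not show that a factor binds there.

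Cell type markers that moved with the groups are given for the whole lists, and their part in the member values was not tested. Summed over 10 skeletal muscle genes, the level was 2379 to 20228 CPM in KO and 51.6 to 179 in KO + NM1. The 10 white adipocyte genes summed to 118 to 310 CPM in KO and 4770 to 34996 in KO + NM1. Macrophage markers were higher in KO for 6 of 8 genes, and fibroblast markers, which the injected cells should carry, were higher for 1 and lower for 3 of 10. The summed fibroblast level overlapped, at 10035 to 16300 CPM in KO and 4089 to 15314 in KO + NM1. Proliferation genes summed to 2275 to 2915 CPM in KO and 87.0 to 271 in KO + NM1, a far larger difference than in any ribosomal protein gene above. Of the remaining lists, brown adipocyte genes were higher for 1 and lower for 5 of 8, mammary epithelium genes were lower for 5 of 7, keratinocyte genes were higher for 1 of 5, and B and plasma cell genes were lower for 1 of 7.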

How the data were processed

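The authors deposited raw read counts per gene, 1 file a library. By the submitters' processing notes, reads were trimmed with Trimmomatic 0.36, aligned to GRCm38 (mm10) with HISAT2 2.0.4 and counted with HTSeq; the strand and overlap options are not given in the sources used here. Symbols, exons and transcript lengths came from GENCODE M21. Counts were filtered with filterByExpr (minimum count 10), scaled by TMM and tested, KO minus KO + NM1 over all 7 libraries, with edgeR 4.0.16 (R 4.3.3). Calls needed a Benjamini-Hochberg adjusted p under 0.05. CPM use the TMM-scaled library size. Deviations of equally numbered pieces correlated at 0.08, 0.10 and -0.02, so the numbers were not used as pairs, and no library repeated another. Alternatives were DESeq2 1.42.0, limma 3.58.1 voom, other scalings and filters, and each library left out. Scripts were tested on simulated counts.

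Named genes were the 4 largest changes in each direction, the 3 highest and 2 lowest per kilobase, members with known further roles, untested members and the extremes of each list. The members and lists were chosen with earlier results of these data known, so no p is given over a list.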

Additional observations from a re-analysis of the deposited data

How the results depend on the processing

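Over 37 named genes and their alternatives, 455 values kept their direction and side of the threshold, 84 no longer passed, 15 newly passed and 37 changed sign. All 13 called members kept their sign. Members higher in KO numbered 11 with all libraries, 7 with DESeq2 size factors, 4 with every gene of 1 count or more kept, 21 by library size alone, 5 with upper-quartile factors and 3 to 13 with a library left out. Members lower numbered 2, then 8 with the DESeq2 Wald test, 4 with its size factors, 1 by library size, 6 with upper-quartile factors, 21 with voom and 1 to 21 with a library left out. Higher by 2-fold were 1, then 4 by library size, 0 with upper-quartile factors and 0 to 3 with a library left out. With the replicate number as a block, 3 members were higher and 0 lower, as were 1 and 3 of the 63 nuclear genes, and 7 mitochondrial mRNAs were lower, with a member median -0.026 from that of all tested genes; the numbers do not pair the pieces. Of the nuclear genes, 5 were higher, then 13 with voom and 1 to 7 with a library left out. Lower were 13, then 23 with the DESeq2 Wald test, 4 by library size, 22 with upper-quartile factors, 26 with voom and 4 to 27 with a library left out. Mitochondrial mRNAs lower numbered 8 to 13 with a library left out. The causes were not tested. Signs turned for values near 0. With upper-quartile factors the log2 fold changes were -0.096 for Mrpl47, -0.040 for Mrps18a, -0.017 for Mrps18b, -0.020 for Mrps18c and -0.14 for Dap3. With the DESeq2 Wald test, its size factors and every gene of 1 count kept, Mrpl47 was at -0.041, -0.042 and -0.038 and Dap3 at -0.081, -0.081 and -0.079. Dap3 was at -0.028 with 10 counts in every library, -0.040 with the block and -0.027 with voom, where Mrpl12 was at -0.020. With a library left out, the lowest and highest values were -0.17 and 0.28 for Mrpl47, -0.13 and 0.28 for Mrps18a, -0.043 and 0.25 for Mrps18b, -0.053 and 0.20 for Mrps18c, -0.70 and 0.019 for Mrps36, -0.080 and 0.56 for Mrpl12, -0.13 and 0.078 for Dap3 and -0.043 and 0.29 for Chchd1. Tested members had 63 to 3781 reads a library, and counting error was not measured apart from the spread between pieces.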
